A study of Mus musculus with 6 samples.

Results

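The pore-forming alpha subunits of the voltage-gated calcium channels were examined by RNA sequencing in *Shank3* transgenic (TG) and wild-type (WT) mice, in tissue from the medial prefrontal cortex (mPFC). The members were the 8 genes *Cacna1a*, *Cacna1b*, *Cacna1c*, *Cacna1d*, *Cacna1e*, *Cacna1g*, *Cacna1h* and *Cacna1i*, found by their Ensembl gene IDs among the 18254 genes of the deposited table. All 8 were measured and tested. The TG mice carried an EGFP-*Shank3* transgene and the controls were their WT littermates, all of them male, on the C57BL/6J background and 10 to 12 weeks old, and no other allele or treatment was described. The promoter of the transgene is not given in the sources used here. Each genotype had 3 libraries, numbered 1 to 3, and a library held mPFC tissue pooled over a pair of mice, so that a replicate is a pool and not a single animal. The values are normalized read counts, that is estimated reads of a gene divided by a size factor for the library.

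Each alpha subunit forms a calcium-selective pore that opens when the membrane is depolarized. The P/Q, N and R types (*Cacna1a*, *Cacna1b* and *Cacna1e*) need a strong depolarization and are known for admitting the calcium that triggers transmitter release at axon terminals, the R type also for its place in dendrites and spines. The L types (*Cacna1c* and *Cacna1d*) lie mostly on cell bodies and dendrites and couple activity to gene expression in the nucleus. The T types (*Cacna1g*, *Cacna1h* and *Cacna1i*) open near the resting potential and are known for burst firing. Shank3 is a scaffold of the postsynaptic density, in which L-type channels are among its known partners.

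The coding sequences show how the family divides. In the reading frame of the longest coding transcript, which held between 2166 and 2381 codons, each of the 8 members had 4 matches to the pore loop pattern, as befits a channel with 4 homologous domains. The acidic residue at the centre of each loop is part of the selectivity filter. It was encoded as glutamate in all 4 loops of *Cacna1a*, *Cacna1b*, *Cacna1c*, *Cacna1d* and *Cacna1e*, and as glutamate in the first pair and aspartate in the last pair of loops of the 3 T-type genes. The third loop is printed because it separates these groups, 5′ to 3′ on the coding strand, with the codon of that residue in capitals.
Cacna1a: ttcacagtgtccacaggaGAGggctggcca
Cacna1b: ttcacagtgtccacgggaGAGgggtggccc
Cacna1e: ttcacagtctctacagggGAAggatggcct
Cacna1c: ttcaccgtctccaccttcGAAgggtggcca
Cacna1d: ttcacagtctcaacttttGAGggctggccc
Cacna1g: tttgtgctggcctccaagGATggctgggtt
Cacna1h: ttcgtgctgtcatccaagGATggctgggta
Cacna1i: tttgtcttggcctccaagGATggctgggtg

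In GRCm38 these stretches of 30 bases lie in coding exons, at chr8:84581320-84581349 on the plus strand for *Cacna1a*, chr2:24651083-24651112 on the minus strand for *Cacna1b* and chr1:154444874-154444903 on the minus strand for *Cacna1e*. The L-type loops lie at chr6:118656115-118656144 (*Cacna1c*) and chr14:30100699-30100728 (*Cacna1d*), both on the minus strand. The T-type loops lie at chr11:94426462-94426491 (*Cacna1g*, minus strand), chr17:25383499-25383528 (*Cacna1h*, minus strand) and chr15:80376789-80376818 (*Cacna1i*, plus strand).

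The groups also differ in the binding site for the beta subunit, the alpha interaction domain of the linker between the first and second domains. Its pattern had 1 match in each of the 5 genes of the P/Q, N, R and L types and 0 in the 3 T-type genes. The stretch is shown because the beta subunits are described further on as partners of these 5 channels, with the codons of conserved residues in capitals.
Cacna1a: GAAcgtgagCTCaatGGATACatggagTGG
Cacna1b: GAGcgagagCTGaatGGGTACttggagTGG
Cacna1e: GAGcgagaaTTGaacGGCTACcgtgccTGG
Cacna1c: GAAgaagatCTCaaaGGCTACctggacTGG
Cacna1d: GAAgaggacCTCaagGGCTACctggacTGG

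They lie at chr8:84536134-84536163 (*Cacna1a*, plus strand), chr2:24719954-24719983 (*Cacna1b*, minus strand), chr1:154493315-154493344 (*Cacna1e*, minus strand), chr6:118734921-118734950 (*Cacna1c*, minus strand) and chr14:30142615-30142644 (*Cacna1d*, minus strand).

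The library totals ranged from 28363967 to 29447717 normalized counts. *Shank3* itself had 17470, 19003 and 16310 normalized counts in TG and 8374, 8173 and 6791 in WT, so that the libraries matched their labels. The log2 fold change was 1.18 with a standard error of 0.10. Its adjusted p-value was 0.0643 in limma's test and 0.000437 when the replicate number was a block, a fit in which 0.00598% of the tested genes (1 gene) passed. The libraries numbered 3 stood apart from the others in both genotypes. Across the 16714 genes tested, the deviations of TG-3 and WT-3 from their genotype means correlated at 0.62, and mitochondrially encoded RNAs (8 genes) summed to 2514749 in TG-3 and 2895810 in WT-3 against 2197999 to 2347058 in the other 4 libraries. In limma's test of TG against WT, 0 of the 16714 genes (0%) passed the adjusted threshold of 0.05. Before adjustment, 336 genes (2.01%) had a p-value under 0.05.

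Between the genotypes, 0 of the 8 alpha subunits passed the adjusted threshold in limma's test, and 0 had a p-value under 0.05 before adjustment. The TG and WT libraries overlapped for all 8 members, whereas they did not overlap for 6.02% of all tested genes. The fitted log2 fold changes lay between -0.02 (*Cacna1e*) and 0.29 (*Cacna1h*), with a median of 0.04, beside a median of -0.00368 for all tested genes. The T-type gene *Cacna1h* was 22.5% higher in TG than in WT and had the widest 95% interval of the family, from -8.52% to 64.2%. For *Cacna1a*, *Cacna1b*, *Cacna1c*, *Cacna1e*, *Cacna1g* and *Cacna1i* the intervals lay between -14.8% and 20.99%, and for *Cacna1d* between -26.0% and 31.9%. The adjusted p-value was 1.00 for each of the 8, and 0.1 is the smallest two-sided p-value that an exact permutation of 3 against 3 libraries allows for 1 gene.

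**Figure D1:**
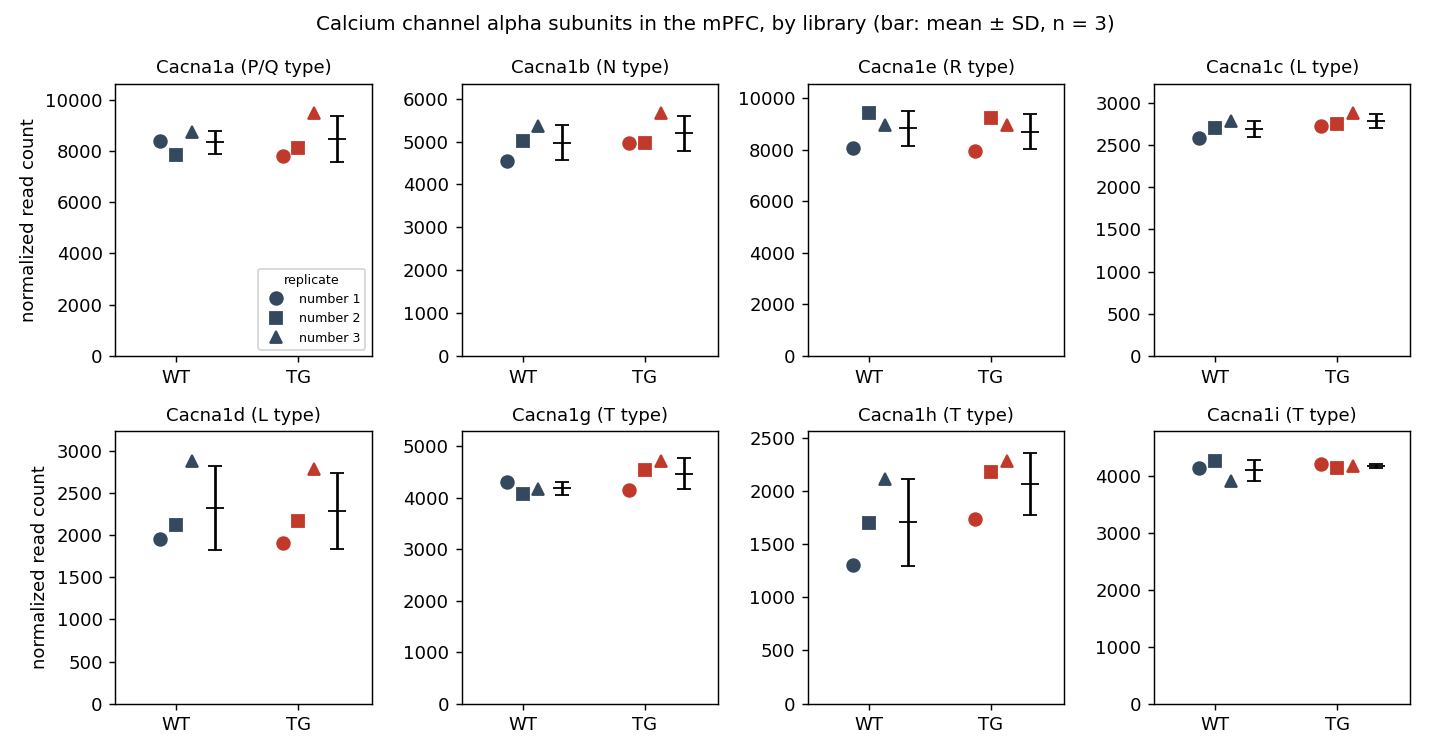
Normalized read counts of the 8 alpha subunits (vertical axes, from 0) in the WT (dark) and TG (red) libraries, with the shape of a point giving the replicate number and the bars the mean ± SD (n = 3). The genotypes overlap in every panel, *Cacna1h* has the largest gap between means (1704 in WT, 2063 in TG), and for *Cacna1d* the libraries numbered 3 lie above the others in both genotypes.

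Among the presynaptic types, *Cacna1a* (ENSMUSG00000034656, chr8:84388440-84640246, plus strand) encodes the P/Q-type pore. It had 7812, 8109 and 9482 normalized counts in TG and 8395, 7833 and 8746 in WT. TG-3 was the highest of the 6 libraries and TG-1 the lowest, so the WT libraries lay within the range of TG. The means were 8467 ± 891 in TG and 8325 ± 461 in WT (SD, n = 3), a log2 fold change of 0.02 (standard error 0.09, exact two-sided permutation p = 0.9).

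*Cacna1b* (ENSMUSG00000004113, chr2:24603887-24763152, minus strand), the N-type pore, had 4959, 4964 and 5672 normalized counts in TG and 4546, 5019 and 5354 in WT. In both genotypes the library numbered 3 was the highest, and WT-1 was the lowest of all. Its log2 fold change was 0.06 (standard error 0.09, exact two-sided permutation p = 0.6).

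*Cacna1e* (ENSMUSG00000004110, chr1:154390731-154884501, minus strand), the R-type pore, had 7939, 9217 and 8940 normalized counts in TG and 8076, 9432 and 8974 in WT. The libraries of the same number lay close together, with both libraries numbered 1 low and both numbered 2 high. TG was below WT at each of the 3 numbers, by 0.02, 0.03 and 0.01 on the log2 scale, and the log2 fold change was -0.02 (standard error 0.09).

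Of the L-type genes, *Cacna1c* (ENSMUSG00000051331, chr6:118587240-119196418, minus strand) had 2726, 2750 and 2884 normalized counts in TG and 2588, 2707 and 2782 in WT. It was among the steadiest members, with a highest library only 1.06 times the lowest in TG and 1.07 times in WT. TG was above WT at all 3 replicate numbers, by 0.07, 0.02 and 0.05 on the log2 scale, although the groups overlapped. Its log2 fold change was 0.05 (standard error 0.07, exact two-sided permutation p = 0.4).

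*Cacna1d* (ENSMUSG00000015968, chr14:30039939-30491455, minus strand) had 1909, 2167 and 2781 normalized counts in TG and 1953, 2116 and 2887 in WT. TG-3 and WT-3 were high, 1.37 and 1.42 times the geometric mean of the other libraries of their genotype. The genotypes differed little beside this, at a log2 fold change of -0.02 (standard error 0.18), with differences of -0.03, 0.03 and -0.05 at the 3 replicate numbers.

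Of the T-type genes, *Cacna1g* (ENSMUSG00000020866, chr11:94408391-94474198, minus strand) had 4145, 4536 and 4720 normalized counts in TG and 4306, 4063 and 4170 in WT. TG-2 and TG-3 were above every WT library and TG-1 was below both WT-1 and WT-3. The log2 fold change was 0.09 (standard error 0.07, exact two-sided permutation p = 0.3).

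*Cacna1h* (ENSMUSG00000024112, chr17:25374285-25433783, minus strand) had 1732, 2173 and 2284 normalized counts in TG and 1302, 1695 and 2115 in WT. TG-2 and TG-3 were above every WT library, and the overlap came from TG-1, which was above WT-1 and WT-2 and below WT-3. The means were 2063 ± 292 in TG and 1704 ± 407 in WT (SD, n = 3), and the log2 fold change was 0.29 (standard error 0.18, unadjusted p = 0.147 in limma's test, exact two-sided permutation p = 0.2). TG exceeded WT at each replicate number, by 0.41, 0.36 and 0.11 on the log2 scale. In the fit blocked by replicate number, the standard error was 0.07 and limma's p-value before adjustment 0.00318, and 4.98% of all tested genes had one under 0.05. The adjusted p-value of *Cacna1h* was then 0.539. Its size depended on single WT libraries, with a log2 fold change of 0.11 without WT-1, 0.46 without WT-3 and 0.38 without both libraries numbered 3.

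*Cacna1i* (ENSMUSG00000022416, chr15:80287238-80398279, plus strand) had 4205, 4137 and 4169 normalized counts in TG and 4127, 4266 and 3900 in WT. The 3 TG libraries were within 1.02 times of each other and lay inside the range of WT. The log2 fold change was 0.03 (standard error 0.07, exact two-sided permutation p = 0.7).

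**Figure D2:**
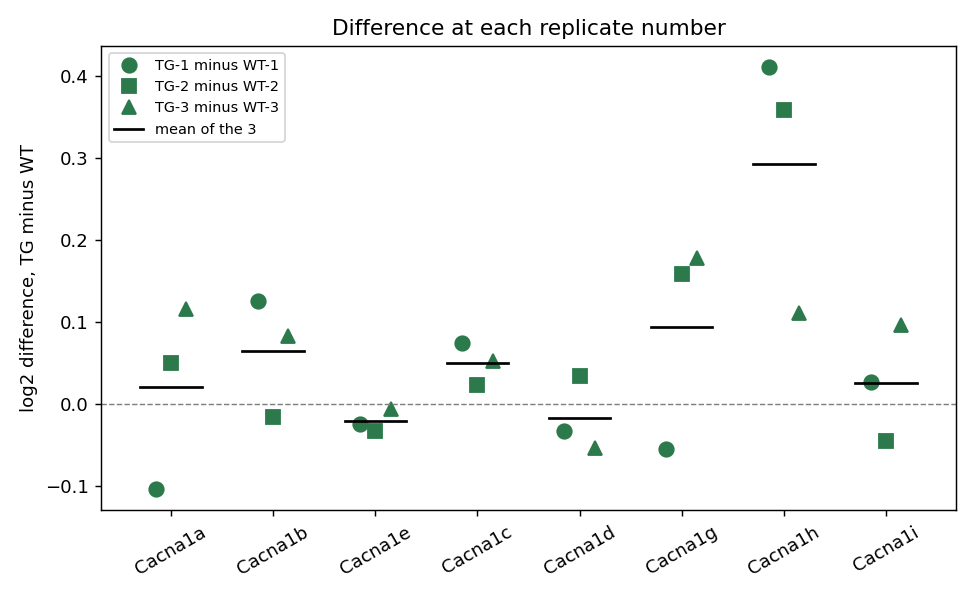
Log2 difference between TG and WT (vertical axis) for each alpha subunit at replicate numbers 1, 2 and 3 (circles, squares and triangles), with the mean of the 3 as a line. *Cacna1h* lies above 0 at every number (0.41, 0.36 and 0.11), *Cacna1c* also lies above 0 and *Cacna1e* below it, and the other members have differences of both signs.

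At all 3 replicate numbers TG was above WT for 2 of the 8 members (*Cacna1c* and *Cacna1h*) and below it for 1 (*Cacna1e*), where 11.6% of all tested genes were above and 13.2% below. The spread between libraries of a genotype differed within the family. On the log2 scale the within-genotype SD was 0.05 for *Cacna1c* and *Cacna1i* and 0.07 for *Cacna1g*. It was between 0.11 and 0.12 for the 3 presynaptic types and 0.29 for both *Cacna1d* and *Cacna1h*, beside a median of 0.17 over all tested genes. In the fit blocked by replicate number the standard errors were closer together, at 0.06 for *Cacna1d*, 0.07 for *Cacna1h* and 0.05 to 0.06 for the other 6. Of the members, 1 (*Cacna1d*) was more than 0.25 higher on the log2 scale in the library numbered 3 of both genotypes, as were 12.7% of all tested genes. For *Cacna1h* that shift was 0.24 in TG and 0.51 in WT. The part of the libraries numbered 3 in these values was not tested beyond the fits without them.

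Levels were compared between the genes per kilobase (kb) of annotated exon, which ranged from 9.76 kb for *Cacna1h* to 25.2 kb for *Cacna1e*. *Cacna1a* had the highest level, 729 ± 40.3 normalized counts per kb in WT and 742 ± 78.0 in TG (SD, n = 3). *Cacna1b* followed with 500.2 ± 40.8 in WT and 523 ± 41.2 in TG. *Cacna1i* and *Cacna1g* came next and overlapped each other in both genotypes, with 415.5 ± 18.8 and 412 ± 12.0 in WT and 423 ± 3.45 and 441 ± 28.98 in TG. *Cacna1e* had 349.9 ± 27.3 in WT and 345 ± 26.7 in TG.

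The lowest levels were those of *Cacna1d* (184 ± 39.5 in WT and 181 ± 35.5 in TG), *Cacna1h* (175 ± 41.7 and 211 ± 29.9) and *Cacna1c* (127 ± 4.605 and 131.5 ± 4.02). *Cacna1d* and *Cacna1h* overlapped in both genotypes and exchanged places, with *Cacna1h* the lower of the pair in WT and the higher in TG. The other neighbours in the order did not overlap within a genotype. With the length of the longest coding transcript in place of all exons, *Cacna1e* moved up to second place, with 592 normalized counts per kb in WT and 583 in TG, and overlapped *Cacna1b*, which in turn overlapped *Cacna1g*. *Cacna1d* was then above *Cacna1h* in both genotypes, with 263 against 251 in TG, and *Cacna1h* also overlapped *Cacna1c*. *Cacna1a* stayed first and *Cacna1c* last in both genotypes.

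**Figure D3:**
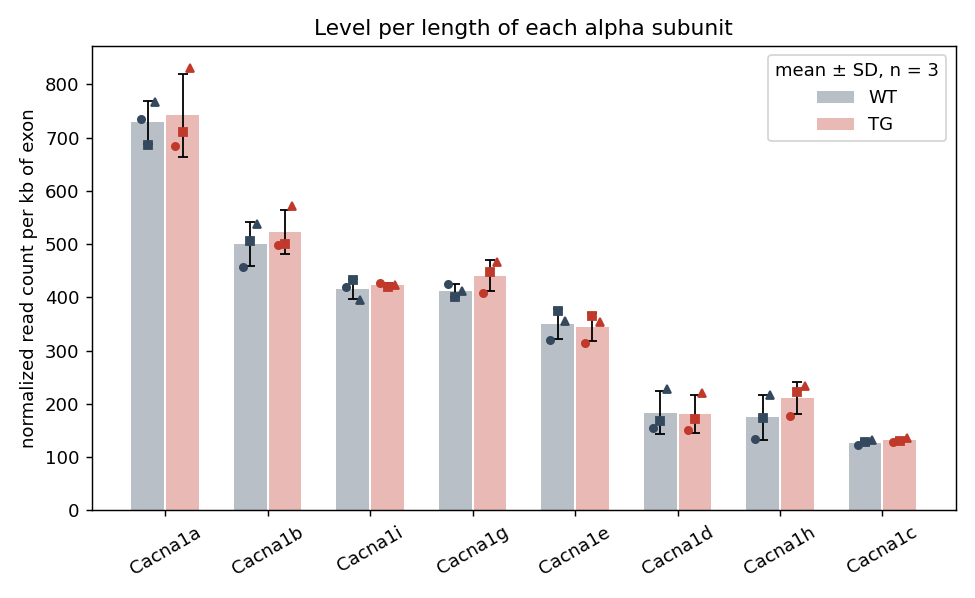
Normalized read count per kb of annotated exon (vertical axis, from 0) for each alpha subunit in WT (dark) and TG (red), ordered by the WT mean, with bars for the mean, whiskers for the SD (n = 3) and points for the libraries. The level falls from 729 for *Cacna1a* to 127 for *Cacna1c* in WT, and the genotypes have nearly the same order.

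As shares of the summed level per kb of the 8 genes, the presynaptic P/Q, N and R types made up 53.7%, 53.1% and 54.3% in the TG libraries and 54.7%, 54.6% and 54.5% in WT. All 3 TG libraries lay below all 3 WT libraries, with means of 53.7% ± 0.588 and 54.6% ± 0.0726 (SD, n = 3). A share depends on the other types as well. In counts per kb, the TG mean was above WT for *Cacna1a* (742 and 729) and *Cacna1b* (523 and 500) and below it for *Cacna1e* (345 and 350). It was above WT for all 3 T-type genes. The T types made up 36.3%, 36.7% and 34.7% in TG and 35.3%, 35.1% and 33.6% in WT. The groups overlapped, although TG was above WT at each of the 3 replicate numbers, with either length. The L types made up 10.0%, 10.2% and 11.02% in TG and 10.0%, 10.3% and 11.8% in WT. These shares are given as a description and were not tested.

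The channel complex also holds a beta subunit, which helps the pore reach the membrane, and an alpha2delta subunit, the target of gabapentin in the case of *Cacna2d1* and *Cacna2d2*. Of 15 genes for beta, alpha2delta and gamma subunits that were tested, 0 passed the adjusted threshold and 0 had a p-value under 0.05 before adjustment, both in limma's test. All 4 beta subunits were measured, with a median log2 fold change of 0.06, which was 0.032 without WT-1, 0.033 without WT-3, 0.035 without TG-3 and 0.094 without WT-2. *Cacnb4* had 8947, 8602 and 8092 normalized counts in TG and 7745, 10144 and 8252 in WT, and WT-2 was the highest and WT-1 the lowest library. *Cacnb3* (0.12, standard error 0.10) and *Cacnb1* (0.09, standard error 0.07) had log2 fold changes above 0 with overlapping groups. The 4 alpha2delta genes had a median log2 fold change of -0.00766, which turned to between 0.00358 and 0.085 without TG-2, TG-3, WT-2 or WT-3, with 0.10 for *Cacna2d1*, -0.06 for *Cacna2d3* and 0.02 for *Cacna2d2*.

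The gamma subunits of the brain are mostly known as auxiliary subunits of AMPA receptors. The 7 that were tested had a median log2 fold change of 0.09, which was 0.00510 without TG-3 and 0.033 to 0.045 without TG-1, TG-2, WT-1 or WT-2. Of these genes, *Cacng7*, *Cacng3* and *Cacng2* had -0.00150, 0.09 and -0.12. *Cacng8*, named after its values were seen, had 1560, 1547 and 1655 normalized counts in TG and 1460, 1533 and 1410 in WT. Its groups did not overlap, and the log2 fold change was 0.11 (standard error 0.07, unadjusted p = 0.163 in limma's test).

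**Figure D4:**
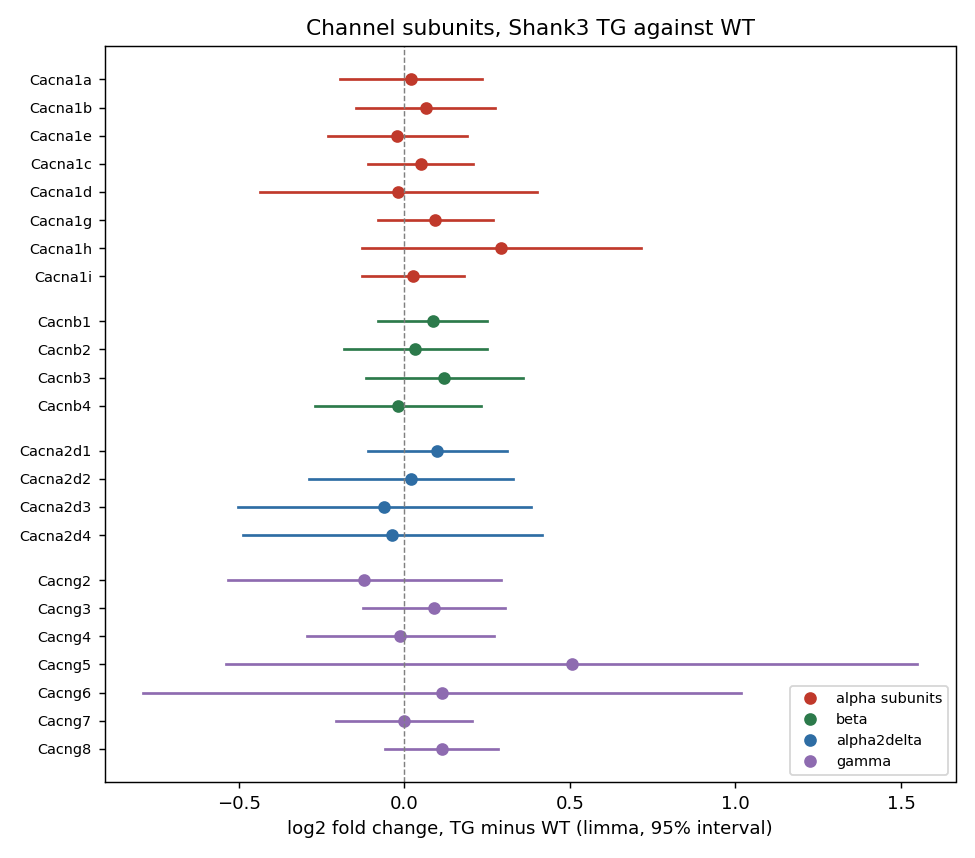
Log2 fold change of TG against WT (horizontal axis) with its 95% interval from limma for the 8 alpha subunits and the tested beta, alpha2delta and gamma subunits. The intervals are from the fit without the replicate number as a block. Every interval includes 0, and the alpha subunit farthest from 0 is *Cacna1h* at 0.29.

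Proteins that act on these channels were read from lists of inhibitors, adaptors, calcium sensors and tethers, and from the kinases, phosphatases and transcription factors that carry L-type signals to the nucleus. Together with the auxiliary subunits and the other alpha subunits these lists held 44 tested genes, of which 0 passed the adjusted threshold in limma's test with or without the block. The groups did not overlap for 2 of the 44 (4.55%), *Cacng8* and *Stac2*, against 6.02% of all tested genes. *Stac2*, an adaptor that slows the inactivation of L-type channels, had 4125, 4358 and 3942 normalized counts in TG and 4617, 4441 and 4383 in WT. It was lower in every TG library than in any WT library, with a log2 fold change of -0.11 (standard error 0.07, unadjusted p = 0.141 in limma's test). Its relatives *Stac3* and *Stac* had 152 and 9.25 normalized counts on average.

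The small GTPases that inhibit channels with a beta subunit had low normalized counts, on average 83.5 for *Gem*, 78.5 for *Rem2* and 35.3 for *Rrad*, and a median log2 fold change of -0.07 over the 4 genes. That median turned to 0.099 without TG-1, and was -0.137 without TG-2, -0.027 without WT-2 and -0.237 with genes averaging 50 or more. The remaining gene, *Rem1*, named after its values were seen, had 17.3, 15.4 and 11.9 normalized counts in TG and 15.7, 6.68 and 3.85 in WT, a difference of 0.88 on the log2 scale (standard error 0.50). Calmodulin, which is bound to the channels as their calcium sensor, had log2 fold changes of 0.07 for *Calm3* and 6.96e-05 for *Calm2*. Among the tethers that hold the presynaptic channels at release sites, *Tspoap1*, *Rims1* and *Rimbp2* had -0.04, -0.09 and 0.00691. In the list for signalling to the nucleus (12 genes, median 0.03), *Camk2a*, *Ppp3ca* and *Ppp3r1* had 0.05, -0.05 and 0.04, and the median turned to -0.00996 without TG-1 and -0.025 without WT-3. None of these genes passed the test.

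The other alpha subunits were the L-type genes of retina and skeletal muscle. *Cacna1f* (ENSMUSG00000031142, chrX:7607083-7635196) had 39.8, 32.8 and 83.1 normalized counts in TG and 61.6, 47.7 and 170 in WT. The libraries numbered 3 were the highest of each genotype, and TG was below WT at each number. The log2 fold change was -0.72 (standard error 0.51). Before adjustment limma's p-value was 0.2, or 0.00466 in the blocked fit, where the adjusted p-value was 0.572. *Cacna1s* had between 14.5 and 28.01 normalized counts in any library.

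The genes with the most similar pattern were found by the root mean square difference of centred log2 values over the 6 libraries, among 11980 genes that averaged 100 or more normalized counts. The nearest gene was *Map1b* for *Cacna1e* (0.02), *Shisa9* for *Cacna1g* (0.02) and *Kmt5a* for *Cacna1d* (0.02), which had 1568 and 1628 normalized counts in the libraries numbered 3 against 1071 to 1225 in the others. It was *Synrg* for *Cacna1b* (0.02), *Lag3* for *Cacna1c* (0.01) and *Stradb* for *Cacna1i* (0.00540). *Cacna1h* was the least closely matched, with *Angpt1* at 0.07, and that gene had 139, 165 and 157 normalized counts in TG and 100.3, 128 and 152 in WT. Within the family, the closest of the 28 pairs were *Cacna1b* and *Cacna1c* (0.06) and the farthest *Cacna1h* and *Cacna1i* (0.29), both of the T type. The measure is not scaled by how much a gene varies, so that a steady gene lies near any other steady gene. The root mean square of the centred values themselves was 0.04 for *Cacna1i*, 0.05 for *Cacna1c*, 0.10 for *Cacna1b* and 0.28 for *Cacna1h*.

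The tissue was checked against markers of the cells that a dissected mPFC can hold, since in bulk tissue fewer cells of a type and less RNA per cell cannot be told apart. All 6 markers of cortical excitatory neurons were present, led by *Slc17a7* with 43582 ± 1823 normalized counts in TG and 39671 ± 406 in WT (SD, n = 3). Their sum was 54590 to 58533 in TG and 50863 to 52669 in WT without overlap, but *Slc17a7* made up most of it. *Slc17a7* was the only marker of the 6 without overlap between the genotypes, where 6.02% of all tested genes had none. Of the 6 markers, 3 had a log2 fold change above 0 and 3 below 0 (*Neurod6* -0.01, *Tbr1* -0.04 and *Fezf2* -0.10), with a median of 0.02. *Rorb* was farthest from 0 at 0.51 (standard error 0.52), with 1974, 2072 and 540 normalized counts in TG and 1151, 1124 and 586 in WT. The 6 markers of inhibitory neurons summed to 19501 to 19630 in TG and 18827 to 19639 in WT. The 6 striatal markers summed to 2559 to 2866 in TG and 2644 to 2761 in WT, from *Drd2* with means of 12.1 and 16.5 to *Ppp1r1b*, which is also cortical and made up most of the sum, with 2026 and 1927. Of the 6, 5 had a log2 fold change below 0, with a median of -0.19. Of these, 1 (*Adora2a*, -0.31, unadjusted p = 0.108 in limma's test) did not overlap between the genotypes, where 6.02% of all tested genes did not. The thalamic list, in which *Rora* leads and is also cortical, summed to 3458 to 4078 in TG and 3661 to 4152 in WT. Of its 6 genes, 3 had a log2 fold change above 0 and 3 below 0, and 1 (*Slc17a6*, -0.17) did not overlap between the genotypes. *Calb2* had 911 normalized counts in TG-2 and 227 to 247 in the other libraries. The 6 oligodendrocyte markers summed to 70011 to 92151 in TG and 105686 to 107596 in WT. All 6 had a log2 fold change below 0, with a median of -0.45, and 4 did not overlap between the genotypes. Before adjustment, 5 had a p-value under 0.05 in limma's test, as did 2.01% of all tested genes, and 0 passed the adjusted threshold. The 6 leptomeningeal markers summed to 3603 to 4276 in TG and 3179 to 3661 in WT. All 6 were above 0, with a median of 0.24, and 1 (*Igf2*) did not overlap. The 6 choroid plexus markers summed to 146 to 558 in TG and 92.8 to 167 in WT, led by *Ttr* with 127, 22.9 and 445 normalized counts in TG and 14.3, 12.6 and 41.7 in WT. *Ttr* made up most of the sum in TG-1 and TG-3 only. Of the 6, 4 had a log2 fold change above 0 and 2 below 0 (*Folr1* -0.12 and *Kl* -0.07). No marker of these lists was at 0 in all libraries. The part of these differences in the values of the alpha subunits was not tested.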

How the data were processed

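The mPFC of *Shank3* TG and WT mice (3 RNA pools of each genotype) was sequenced with stranded mRNA libraries. The authors estimated transcript abundance with Salmon 0.9.1 on GRCm38 with GC bias correction, summed it to genes with tximport and scaled the libraries by DESeq2 1.19.11 size factors. The deposited signal is these normalized read counts. They are not whole reads, so no counting interval was given. The totals of 28363967 to 29447717 are already scaled by the size factors, so they do not show the depth of each library.

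Symbols, positions and exon lengths came from GENCODE release M21 (GRCm38), which held 18231 of the 18254 genes. Coding stretches came from its transcript sequences, in the longest reading frame of the longest coding transcript, by patterns of encoded residues (4 pore loops, and the conserved residues of the beta-subunit binding site). No promoter or protein sequence was used here.

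Genes averaging 5 or more normalized counts were tested with limma 3.58.1 (R 4.3.3) on log2(normalized count + 1), with the genotype alone, a mean-variance trend, two-sided tests, Benjamini-Hochberg adjustment over all 16714 genes and a threshold of 0.05. Fold changes are on that scale. The fit was tested on simulated data with libraries drawn independently of each other. These lack the deviation that same-numbered libraries share, so they cannot check the fit where that deviation is present. The study's methods name WT littermates as controls and speak of paired RNA samples, without tying a replicate number to a litter, and same-numbered libraries deviated together (correlations of 0.30, 0.33 and 0.62), so the replicate numbers were taken to pair them. TG-1 with WT-2 (0.27) and TG-2 with WT-1 (0.23) were nearly as high as the first pair of these, so that the numbers 1 and 2 are poorly told apart. The blocked fit was an alternative.

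Members and lists were chosen with earlier results of these data known. Named are the 8 members, the 3 most abundant genes of each partner list, *Shank3* and the gene most alike each member, some of which are not reported here. *Cacng8*, *Rem1* and the single marker genes were named after their values were seen. The alternatives were other pseudocounts (0.1 and 5), filters (none and 50), scalings, eBayes options, an empirical null, and leaving out libraries. *Cacng1*, of the gamma list, was not analysed here, nor were 5 of the 6 genes of a list of nuclear-retained RNAs, of which *Snhg11* had a log2 fold change of -0.09.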

Additional observations from a re-analysis of the deposited data

How the results depend on the processing

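No alpha subunit passed the adjusted threshold under any of the 18 other settings, where limma's adjusted p-values were 0.539 or more (lowest for *Cacna1h*, with the replicate number as a block). *Cacna1b*, *Cacna1c*, *Cacna1g* and *Cacna1h* kept their direction in all 18. Without both libraries numbered 3 the log2 fold changes of *Cacna1a*, *Cacna1d* and *Cacna1i* became -0.027, 0.00101 and -0.00889. Leaving out 1 library at a time, they ranged from -0.063 to 0.076 for *Cacna1a*, 8.06e-05 to 0.12 for *Cacna1b*, 0.02 to 0.07 for *Cacna1c*, -0.17 to 0.15 for *Cacna1d*, -0.084 to 0.043 for *Cacna1e*, 0.05 to 0.15 for *Cacna1g*, 0.11 to 0.46 for *Cacna1h* and -0.00910 to 0.056 for *Cacna1i*, and the cause was not tested. The number of genes past the threshold was 1 with the block, with the robust option, with a common upper quartile and without both libraries numbered 3, 26 with the empirical null, and 0 to 1 after leaving out any 1 library. Leaving out 1 library also turned the sign of the medians of the STAC (-0.026 to 0.126), calmodulin (-0.022 to 0.060) and tether (-0.096 to 0.00429) lists. The pairing by replicate number changed no call of an alpha subunit. Per kb of the longest coding transcript the levels in TG and WT were 1068 and 1050.3 for *Cacna1a*, 212 and 205 for *Cacna1c*, 263 and 267 for *Cacna1d*, 583 and 592 for *Cacna1e*, 533 and 499 for *Cacna1g*, 251 and 207 for *Cacna1h* and 426 and 419 for *Cacna1i*, since that length is shorter.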
